A study of Homo sapiens with 12 samples.

Results

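The receptor tyrosine kinases MET, PDGFRA, EGFR, AXL, FGFR1, IGF1R and EPHA2, each known for a role in glioblastoma, were followed in U251 cells after siRNA knock-down of the transcription factors ETV6 and NFKB1. U251 is an established human glioblastoma line. All probe sets that the platform table assigns to 1 of these 7 genes and to no other were taken, which gave 20 of 17313 single-gene probe sets and 7 of 10346 genes. MET had 3 of them, PDGFRA 2, EGFR 5, AXL 2, FGFR1 4, IGF1R 3 and EPHA2 1. The 4 groups of 3 arrays were ETV6 siRNA, NFKB1 siRNA, double siRNA (both together) and control siRNA, a sequence that matches no known human transcript. Each siRNA was an ON-TARGETplus SMARTpool delivered with DharmaFECT 2 at 50 nM, and total RNA was hybridized to Affymetrix expression arrays. The labels do not say whether the total amount of siRNA was made equal between groups, so a larger total and the loss of both factors cannot be told apart in the double group. Nor do they say that replicates came from separate cultures, and the p-values therefore reflect only how far these samples differed, which may be technical.

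Receptor tyrosine kinases sit in the cell membrane, bind a growth factor outside the cell, pair up and phosphorylate tyrosines on their own tails. Adaptor proteins dock there and pass the signal to the RAS and MAP kinase chain and to PI3K and AKT, which drive growth, survival and movement. EGFR, PDGFRA and MET are often altered in glioblastoma, and AXL, FGFR1, IGF1R and EPHA2 are known as further inputs to the same chains. ETV6 is an ETS-family factor that mostly represses its targets, and NFKB1 encodes the p105 precursor and p50 subunit of NF-kB.

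The promoters of the receptors whose levels moved most, MET and PDGFRA, are shown because the study knocked down 2 DNA-binding factors. The RefSeq promoter table of GRCh38.p14 held 9 windows for 6 of the 7 receptors, each from 250 bases before to 50 bases after a start site. FGFR1 is named only. Capitals mark GC boxes (GGGCGG on either strand, the motif bound by SP1).

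MET, chr7:116671946-116672245, + strand: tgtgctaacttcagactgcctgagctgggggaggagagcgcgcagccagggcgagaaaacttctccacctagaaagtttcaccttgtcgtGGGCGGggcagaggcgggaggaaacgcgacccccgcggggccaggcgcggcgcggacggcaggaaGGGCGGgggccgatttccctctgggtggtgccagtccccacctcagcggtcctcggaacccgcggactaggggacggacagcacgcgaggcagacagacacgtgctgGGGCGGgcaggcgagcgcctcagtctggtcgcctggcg

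PDGFRA upstream start, chr4:54229043-54229342, + strand: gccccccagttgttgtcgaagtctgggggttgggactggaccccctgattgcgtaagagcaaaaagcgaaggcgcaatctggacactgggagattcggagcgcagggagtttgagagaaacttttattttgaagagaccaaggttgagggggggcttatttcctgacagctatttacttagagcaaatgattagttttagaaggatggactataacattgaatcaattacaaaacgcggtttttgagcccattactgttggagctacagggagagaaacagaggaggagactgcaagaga

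PDGFRA downstream start, chr4:54233710-54234009, + strand: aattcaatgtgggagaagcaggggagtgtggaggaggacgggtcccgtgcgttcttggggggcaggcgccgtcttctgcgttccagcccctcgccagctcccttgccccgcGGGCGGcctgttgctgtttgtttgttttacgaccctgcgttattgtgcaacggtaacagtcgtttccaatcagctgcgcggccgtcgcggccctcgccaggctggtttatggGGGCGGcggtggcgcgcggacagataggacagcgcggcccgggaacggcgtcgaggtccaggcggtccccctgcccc

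The MET window held 3 GC boxes and was 69.3% G and C. The upstream PDGFRA window held 0 GC boxes at 47.0% G and C, and the downstream one held 2 at 66.7%. GC boxes occur in 45.0% of all 35116 windows of this length in the table. The ETS core (CCGGAA, both strands) occurs in 17.2% of them and the NF-kB consensus in 5.91%, and a stretch that matched more than 1 motif was counted for each. Among the 9 receptor windows the ETS core was found in 1, the second AXL window at bases -236 to -231, counting the first base of the transcript as 0, and the NF-kB consensus in 0. The other windows with GC boxes were the first EGFR window with 3, the first AXL window with 2, IGF1R with 2 and EPHA2 with 1. A match is a description of letters only, and the lack of one says only that these letters are not in this window.

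The targeted genes were lowest where their siRNA was given. ETV6 on its brighter probe set stood at 22.6% of control with ETV6 siRNA and 35.1% with double siRNA, and NFKB1 on its 1 probe set stood at 60.3% of control with NFKB1 siRNA (adjusted p = 0.00988) and 58.8% with double siRNA (adjusted p = 0.00243). That NFKB1 probe set is dim, at 6.59 in NFKB1 siRNA, 6.55 in double siRNA and 7.32 in control siRNA cells, near the 25th percentile of all probe sets (7.09), so these percentages are imprecise. Vimentin ranged from 14.43 to 14.53 and GFAP from 12.82 to 13.59 (log2 levels over all 12 arrays), and 8 of 10 glioma and astrocyte markers had a probe set used here. Of these 8, 1 was higher and 3 were lower with double siRNA, among them NES (-1.16) and GFAP (-0.54), and 1 was higher and 3 lower with NFKB1 siRNA, among them SLC1A3 (-0.78). Of 15 markers of other cell types 4 had one, PDGFRB, SYT1, MBP and COL1A1, and lay between 5.77 and 7.88. With double siRNA 2 of these 4 were higher (SYT1 by 0.83 and MBP by 0.72) and 2 lower, with NFKB1 siRNA 1 was higher (PDGFRB, 0.24) and 2 lower (SYT1, -0.68, and MBP, -0.33), and with ETV6 siRNA MBP was higher (0.54). By the same limma threshold, an adjusted p under 0.05, 77.5% of all genes were higher or lower with double siRNA. With NFKB1 siRNA the share was 34.5% and with ETV6 siRNA 6.86%. The double siRNA arrays stood apart in ways that touch every comparison with them. Poly-A spike-ins, RNA added in fixed amount before labelling, averaged 7.97 to 8.05 in double siRNA arrays, against 8.37 to 9.35 in the other arrays. The log2 ratio of the 3' to the 5' probe set of beta-actin was 2.05 to 2.16 in double siRNA arrays, 1.91 in control siRNA replicate 3 and 1.52 to 1.73 in the other 8. The same ratio for GAPDH did not set them apart, at 0.46 to 0.51 in double siRNA arrays and 0.37 to 0.54 in the others. The part of these differences in the results was not tested. In RNA from whole cultures, fewer cells with a transcript and less transcript per cell cannot be told apart.

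All values below are log2 probe set levels as deposited, a change is the difference of group means, and an adjusted p under 0.05 in limma, over all 17313 probe sets, is a call. Background levels set a limit: 16 of the 20 probe sets had a mean above the 25th percentile of all probe sets (7.09), and the 4 below it were MET 211599_x_at and 213807_x_at and FGFR1 207937_x_at and 222164_at. By Affymetrix naming, probe sets ending in x_at can also bind other transcripts. Those ending in s_at match several transcripts, which may come from different genes. Levels of different probe sets were not compared. The 3 comparisons with control siRNA share the same control arrays. The share of all probe sets whose groups did not overlap is not given here, so a lack of overlap describes only the arrays named.

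**Figure D1:**
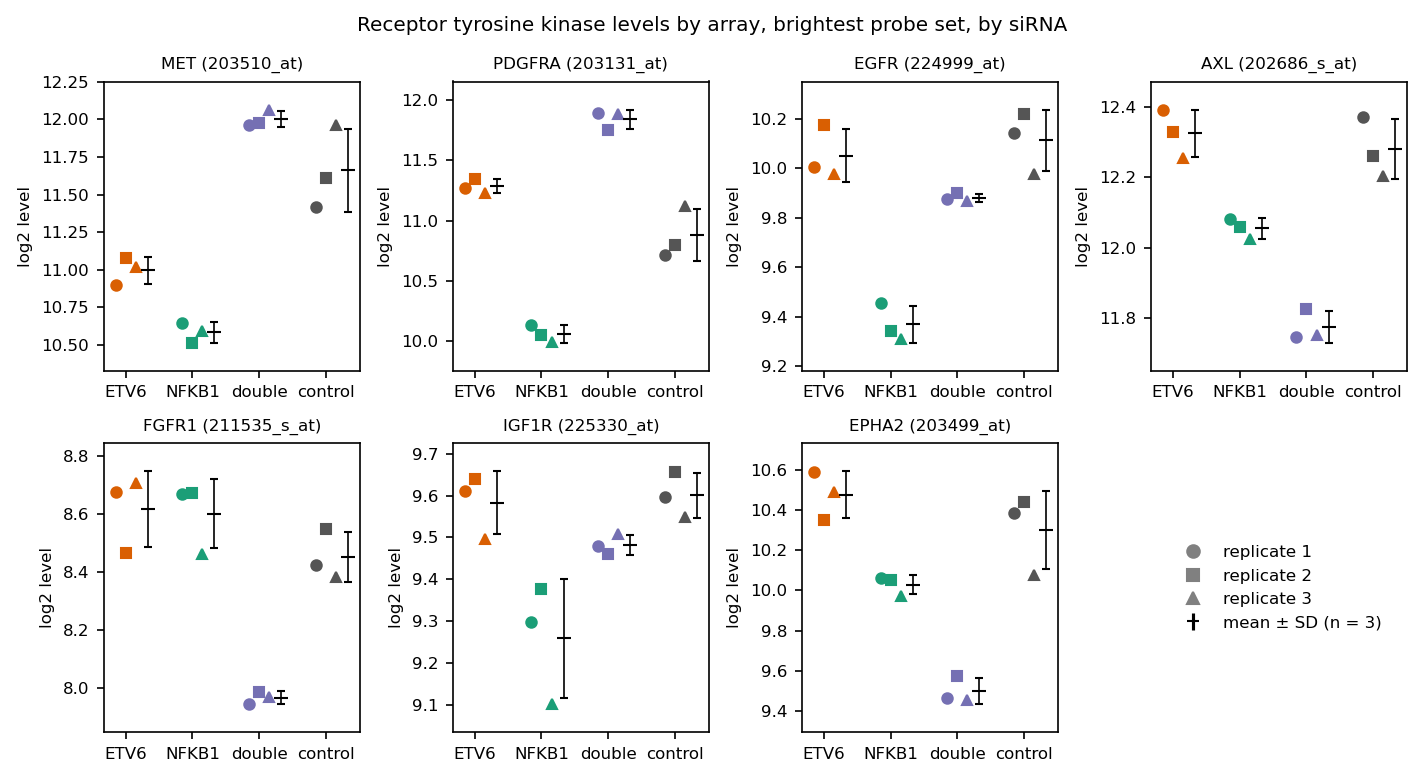
Log2 level (y axis) of the brightest probe set of each receptor on the 12 arrays, by siRNA (x axis), with mean ± SD (n = 3) beside the points. The double siRNA arrays are the highest for MET and PDGFRA and the lowest for AXL, FGFR1 and EPHA2, and the NFKB1 siRNA arrays are the lowest for MET, PDGFRA, EGFR and IGF1R.

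ETV6 siRNA moved few of these receptors. MET, the receptor for hepatocyte growth factor, fell to 10.90, 11.08 and 11.02 on probe set 203510_at in ETV6 siRNA cells, against 11.42, 11.61 and 11.96 in control siRNA cells. All 3 ETV6 siRNA arrays lay below all 3 control arrays, and the change was -0.66 ± 0.11 (SE; limma adjusted p = 0.00752), a level 1.59-fold lower. PDGFRA, the receptor for platelet-derived growth factors, went the other way. Probe set 203131_at stood at 11.27, 11.35 and 11.23 in ETV6 siRNA cells, against 10.72, 10.79 and 11.12 in control siRNA cells, a change of 0.41 ± 0.10 (SE; limma adjusted p = 0.0307). These groups did not overlap, but control replicate 3 came within a small distance of the ETV6 siRNA arrays. The call is fragile, since leaving out control replicate 1 gave 0.33 (limma adjusted p = 0.0720) for PDGFRA, and leaving out control replicate 2, or any 1 of the ETV6 siRNA arrays, also ended it. The second PDGFRA probe set, 215305_at, stood 0.32 higher with an adjusted p of 0.109, and its groups did not overlap either.

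In all, 2 of the 20 receptor probe sets were called with ETV6 siRNA, 1 higher and 1 lower, beside 6.35% of all probe sets (2.29% higher and 4.06% lower). On the brightest probe sets these were 2 of 7 receptors, beside 6.86% of genes. The 18 other probe sets had values from -0.12 to 0.32 with no call, and the median over the 20 was 0.08, beside 0.01 over all probe sets. With only the ETV6 and control arrays in the limma fit 0 of the receptor probe sets were called, and 3 had an unadjusted p under 0.05, 2 higher and 1 lower. The same fit called 0.399% of all probe sets, and the adjusted p was 0.0983 for MET 203510_at and 0.162 for PDGFRA 203131_at with the same changes.

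NFKB1 siRNA lowered most of the receptors on their brightest probe sets. MET 203510_at fell to 10.65, 10.51 and 10.59 in NFKB1 siRNA cells, against 11.42, 11.61 and 11.96 in control siRNA cells. The change of -1.08 ± 0.11 (SE; limma adjusted p = 7.44e-05) is a level 2.11-fold lower, and the groups were well separated. PDGFRA 203131_at fell to 10.13, 10.04 and 9.99 in NFKB1 siRNA cells, against 10.72, 10.79 and 11.12 in control siRNA cells, without overlap. Its change was -0.82 ± 0.10 (SE; limma adjusted p = 0.000140). EGFR, the receptor for epidermal growth factor, fell on 224999_at to 9.46, 9.34 and 9.31 in NFKB1 siRNA cells, against 10.14, 10.22 and 9.98 in control siRNA cells. The groups again did not overlap, and the change was -0.74 ± 0.08 (SE; limma adjusted p = 6.37e-05). MET 211599_x_at and 213807_x_at (-0.01 and 0.01) and PDGFRA 215305_at (-0.17) were not called with NFKB1 siRNA.

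The other receptors changed less with NFKB1 siRNA on their brightest probe sets. IGF1R, the receptor for insulin-like growth factors, stood at 9.30, 9.38 and 9.10 on 225330_at in NFKB1 siRNA cells, against 9.60, 9.66 and 9.55 in control siRNA cells, a change of -0.34 (adjusted p = 0.00487). AXL, a receptor that binds GAS6, stood at 12.08, 12.06 and 12.02 on 202686_s_at in NFKB1 siRNA cells, against 12.37, 12.26 and 12.20 in control siRNA cells. Its change was -0.22 (adjusted p = 0.0149), and it was -0.14 (adjusted p = 0.101) after each array was shifted to the same median, and the adjusted p was 0.0797 with only NFKB1 and control siRNA arrays in the fit. EPHA2, an ephrin receptor, stood at 10.06, 10.05 and 9.97 in NFKB1 siRNA cells, against 10.39, 10.44 and 10.08 in control siRNA cells. The groups did not overlap on any of these 3 probe sets, although EPHA2 in control replicate 3 lay next to the NFKB1 siRNA arrays. The EPHA2 change was -0.27 (adjusted p = 0.0440) and lost its call in 12 of 22 alternatives, among them leaving out control replicate 1 (-0.23, adjusted p = 0.104) or control replicate 2 (-0.20, adjusted p = 0.139). IGF1R 203627_at and 203628_at (-0.04 and -0.13) and AXL 202685_s_at (-0.003) were not called with NFKB1 siRNA.

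FGFR1, a receptor for fibroblast growth factors, did not fall with NFKB1 siRNA. Its 226705_at probe set rose to 8.57, 8.52 and 8.62 in NFKB1 siRNA cells, against 8.28, 8.31 and 8.05 in control siRNA cells, a change of 0.36 (adjusted p = 0.00756) with no overlap. The brightest FGFR1 probe set, 211535_s_at, stood at 0.15 over control (adjusted p = 0.174), and at 0.24 (adjusted p = 0.0425) after the shift to the same median. In the main fit, with the deposited scaling and no array weights, no other receptor had a call in the higher direction. With array weights 2 receptor probe sets were called higher and 9 lower, beside 50.1% of all probe sets called.

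Counting all probe sets, 8 of 20 were called with NFKB1 siRNA, 1 higher and 7 lower, beside 34.9% of all probe sets (11.1% higher and 23.7% lower). On the brightest probe set of each gene 6 of 7 receptors were called, all lower, beside 34.5% of genes (22% lower), and the median was -0.34, beside 0.01 over all genes. The balance of directions depends on the scaling. Of all probe sets called, 31.9% were higher as deposited, 54.7% after the shift to the same median and 53% after quantile normalization. The receptor probe sets were then 4 higher and 5 lower after the median shift, and 4 higher and 6 lower after quantile normalization. Of all probe sets, 42.9% were called after the shift and 40.8% after quantile normalization. MET 203510_at, PDGFRA 203131_at, EGFR 224999_at and 201983_s_at, and IGF1R 225330_at kept a lower call under both.

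**Figure D2:**
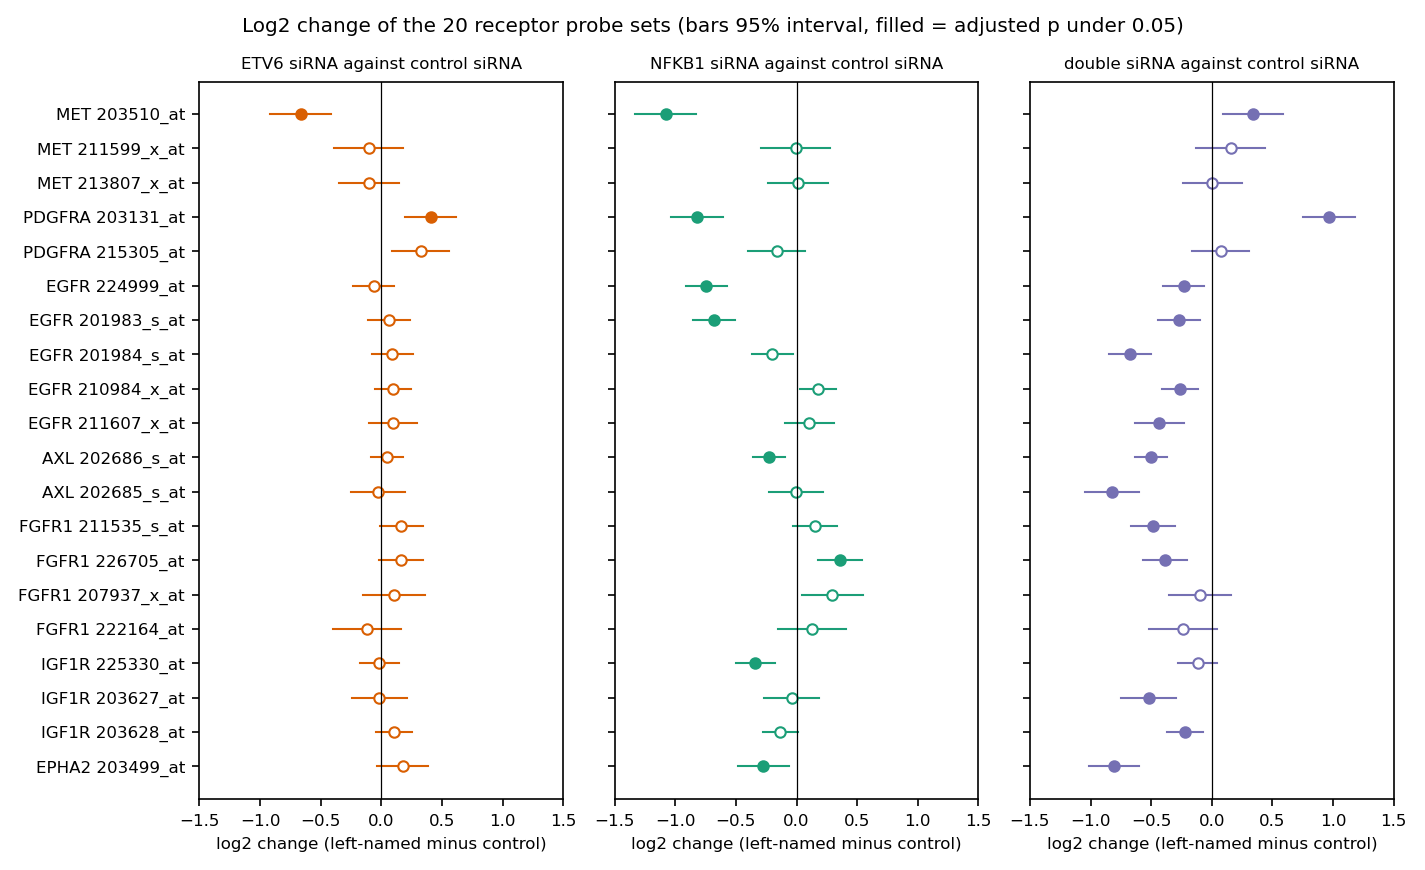
Log2 change of the 20 receptor probe sets (rows) for each siRNA group minus control siRNA, with 95% intervals from limma and filled points where the adjusted p was under 0.05. MET 203510_at lies at -0.66 with ETV6 siRNA, -1.08 with NFKB1 siRNA and 0.34 with double siRNA.

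With both siRNAs the receptors parted into a pair that rose and a larger group that fell. PDGFRA 203131_at rose to 11.89, 11.75 and 11.89 in double siRNA cells, against 10.72, 10.79 and 11.12 in control siRNA cells. The groups were far apart, and the change of 0.97 ± 0.10 (SE; limma adjusted p = 1.23e-05) is a level 1.95-fold higher. MET 203510_at stood at 11.97, 11.98 and 12.07 in double siRNA cells, against 11.42, 11.61 and 11.96 in control siRNA cells. Here control replicate 3 reached almost to the double siRNA arrays. The MET change was 0.34 ± 0.11 (SE; limma adjusted p = 0.0177), and it was 0.49 (adjusted p = 0.000189) without control replicate 3, 0.22 (adjusted p = 0.0751) without control replicate 1, 0.31 (adjusted p = 0.0547) without control replicate 2 and 0.31 (adjusted p = 0.0578) without double siRNA replicate 3. The other probe sets of these receptors did not show the rise: MET 211599_x_at and 213807_x_at stood at 0.16 and 0.01, and PDGFRA 215305_at at 0.07, with no call.

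EPHA2 fell to 9.47, 9.57 and 9.45 in double siRNA cells, against 10.39, 10.44 and 10.08 in control siRNA cells. The groups did not overlap, and the change was -0.81 ± 0.09 (SE; limma adjusted p = 2.90e-05), a level 1.75-fold lower. AXL 202686_s_at fell to 11.75, 11.83 and 11.75 in double siRNA cells, against 12.37, 12.26 and 12.20 in control siRNA cells, a change of -0.50 (adjusted p = 3.19e-05). Its second probe set, 202685_s_at, fell further, by 0.82 (adjusted p = 4.03e-05), and neither AXL probe set had overlapping groups. FGFR1 211535_s_at fell to 7.94, 7.99 and 7.97 in double siRNA cells, against 8.42, 8.55 and 8.38 in control siRNA cells, and the change was -0.49 (adjusted p = 0.000274). FGFR1 226705_at, which rose with NFKB1 siRNA alone, fell by 0.39 (adjusted p = 0.00136) with both, while the 2 dim FGFR1 probe sets stood at -0.10 and -0.24 without a call.

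EGFR fell on all 5 of its probe sets with double siRNA, by 0.23 to 0.68. Probe set 224999_at stood at 9.88, 9.90 and 9.87 in double siRNA cells, against 10.14, 10.22 and 9.98 in control siRNA cells, a change of -0.23 (adjusted p = 0.0161) that was -0.18 (adjusted p = 0.0701) without control replicate 2. The largest EGFR change was on 201984_s_at, at 8.10, 8.30 and 8.16 in double siRNA cells, against 8.95, 8.94 and 8.70 in control siRNA cells (-0.68, adjusted p = 2.58e-05). On each EGFR probe set the double siRNA arrays lay below the control arrays, but the share of all probe sets without overlap is not given here. Of all probe sets, 76.4% were called in this comparison, 36.5% higher and 39.9% lower. IGF1R fell on 203627_at by 0.52 (adjusted p = 0.000832) and on 203628_at by 0.22 (adjusted p = 0.0108), while 225330_at stood at -0.12 (adjusted p = 0.162).

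In all, 14 of 20 receptor probe sets were called with double siRNA, 2 higher and 12 lower, beside 76.4% of all probe sets (36.5% higher and 39.9% lower). On the brightest probe sets 6 of 7 were called, 2 higher and 4 lower, beside 77.5% of genes. The share of receptors called was thus near the background. The median change was -0.25 over the 20, beside -0.04 over all probe sets. Shifting each array to the same median moved the median of all probe sets to -0.15, and on that scale PDGFRA 203131_at was 0.86 (adjusted p = 6.89e-06), MET 203510_at 0.23 (adjusted p = 0.0763) and EPHA2 -0.91 (adjusted p = 9.83e-06). In the double siRNA arrays the lower poly-A spike-ins and the higher beta-actin 3' to 5' ratio given above moved with these changes. The GAPDH ratio did not. Their part was not tested. Control replicate 3 had the beta-actin ratio nearest to the double siRNA arrays. Without it, 16 receptor probe sets were called with double siRNA, 2 higher and 14 lower, and 10 with NFKB1 siRNA, 2 higher and 8 lower. Of all probe sets, 78.9% were then called with double siRNA and 27.9% with NFKB1 siRNA.

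Set against each single knock-down, the double knock-down had higher MET and PDGFRA on their brightest probe sets only. PDGFRA 215305_at was lower than in ETV6 siRNA cells (-0.25, limma adjusted p = 0.0481). Against NFKB1 siRNA cells it was not called (0.24, adjusted p = 0.0546). MET 211599_x_at and 213807_x_at were called in neither comparison. MET 203510_at was higher by 1.00 ± 0.11 (SE) in double siRNA cells than in ETV6 siRNA cells and by 1.42 ± 0.11 than in NFKB1 siRNA cells (limma adjusted p = 2.10e-05 and 1.18e-06). For PDGFRA 203131_at the differences were 0.56 ± 0.10 over ETV6 siRNA cells and 1.79 ± 0.10 over NFKB1 siRNA cells (limma adjusted p = 0.000269 and 4.33e-07), and the arrays did not overlap in any of these 4 comparisons. EPHA2 was lower in double siRNA cells than in ETV6 siRNA cells (-0.98, adjusted p = 1.03e-05) and than in NFKB1 siRNA cells (-0.53, adjusted p = 0.000254). Against ETV6 siRNA, 14 of 20 receptor probe sets were called, 2 higher and 12 lower, beside 82.7% of all probe sets (39.4% higher and 43.2% lower). Against NFKB1 siRNA, 16 were called, 5 higher and 11 lower, beside 87.3% (42.7% higher and 44.7% lower). These 2 comparisons share the double siRNA arrays.

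ETV6 siRNA cells had more receptor transcript than NFKB1 siRNA cells wherever the difference was called. PDGFRA 203131_at was higher by 1.23 ± 0.10 (SE; limma adjusted p = 1.61e-05), EGFR 201983_s_at by 0.75 and 224999_at by 0.68, EPHA2 by 0.45 and MET 203510_at by 0.41. The arrays of the 2 groups did not overlap for any of them. In all 10 of 20 receptor probe sets were called by limma, 10 higher and 0 lower (1 lower at an unadjusted p under 0.05), beside 26.8% of all probe sets, 18.9% higher and 7.95% lower. On the brightest probe sets 6 of 7 receptors were higher, beside 17.9% of genes higher and 9.25% lower, together 27.1%. After the shift to the same median the counts were 8 higher and 1 lower (FGFR1 226705_at at -0.28), beside 32% of all probe sets called. Of all probe sets called 45.8% were then higher, against 70.3% as deposited. MET lost this call without ETV6 siRNA replicate 2 (0.37, adjusted p = 0.0840), ETV6 siRNA replicate 3 (0.41, adjusted p = 0.0539) or NFKB1 siRNA replicate 2 (0.38, adjusted p = 0.0701).

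Whether the double knock-down equalled the sum of the single ones was asked with an interaction term. This was double minus ETV6 minus NFKB1 plus control on the log2 scale. ETV6 transcript stood higher in double than in ETV6 siRNA cells on both probe sets (0.64, limma adjusted p = 0.000289, and 0.70, adjusted p = 9.74e-05). NFKB1 was not called between double and NFKB1 siRNA cells (-0.04). The interaction of ETV6 itself was 0.81 (adjusted p = 0.000623) on its brighter probe set and 0.30, not called, on the other. The term thus did not compare equal knock-down of ETV6, and the part of this was not tested. MET 203510_at departed furthest from the sum. The double change of MET 203510_at was 0.34, while the single changes add up to -1.74, an interaction of 2.08 ± 0.16 (SE; limma adjusted p = 5.15e-06). For PDGFRA 203131_at the double change was 0.97 against a sum of single changes of -0.41, an interaction of 1.38 ± 0.14 (SE; limma adjusted p = 1.40e-05). FGFR1 226705_at departed in the opposite sense, with a double change of -0.39 and single changes adding up to 0.52 (interaction -0.91 ± 0.12, adjusted p = 5.26e-05). EPHA2 behaved likewise, at -0.81 for the double change and -0.10 for the sum (-0.71, adjusted p = 0.000542), as did AXL 202685_s_at at -0.82 and -0.03 (-0.79, adjusted p = 0.000430). No interaction was called for MET 211599_x_at (0.27, limma adjusted p = 0.191), MET 213807_x_at (0.10, adjusted p = 0.580) or PDGFRA 215305_at (-0.09, adjusted p = 0.608).

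Across the receptors 15 of 20 probe sets had a called interaction, 5 higher and 10 lower, beside 83.3% of all probe sets (40.7% higher and 42.6% lower), which is a share near the background. After the shift to the same median, which moved the median interaction of all probe sets to -0.26 from -0.05, the receptor calls were 3 higher and 12 lower, beside 84.7% of all probe sets (5970 higher and 8691 lower). The 3 were MET 203510_at (1.88), PDGFRA 203131_at (1.18) and EGFR 224999_at (0.37). The weakest called interaction, IGF1R 225330_at at 0.24 (adjusted p = 0.0485), was 0.04 (adjusted p = 0.725) after the shift and was lost when any of 9 of the 12 arrays was left out.

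**Figure D3:**
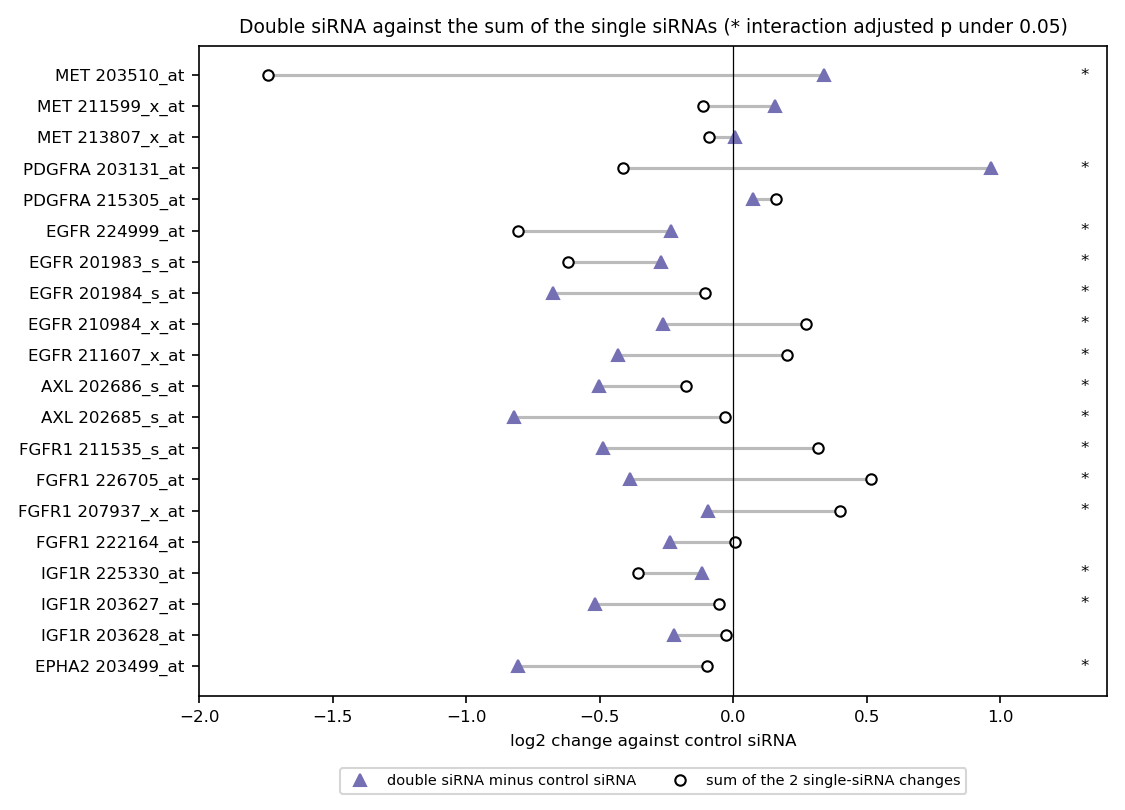
For each receptor probe set (rows), the log2 change with double siRNA (triangles) and the sum of the 2 single changes (circles), both against control siRNA, with a star where the limma interaction had an adjusted p under 0.05. MET 203510_at shows the widest gap, 0.34 against -1.74, and the sum lies to the right of the double change for AXL, FGFR1 and EPHA2.

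The 5 EGFR probe sets split into 2 patterns. With NFKB1 siRNA, 224999_at and 201983_s_at fell by 0.74 and 0.68, while 201984_s_at (-0.20, adjusted p = 0.0678), 210984_x_at (0.17, adjusted p = 0.0649) and 211607_x_at (0.10, adjusted p = 0.389) were not called. In double siRNA cells the first pair was higher than in NFKB1 siRNA cells, by 0.51 and 0.41 (adjusted p = 6.61e-05 and 0.000413). The other 3 EGFR probe sets were lower there, at -0.48, -0.44 and -0.54 (adjusted p = 0.000132, 8.08e-05 and 0.000181). The EGFR interactions carry the same split, at 0.57 and 0.35 for the pair and -0.57, -0.54 and -0.63 for the others, although the 0.35 of 201983_s_at was 0.14 (adjusted p = 0.228) after the shift to the same median. The calls of the other 3 EGFR probe sets are not settled with NFKB1 siRNA: without control replicate 3, 201984_s_at was lower (-0.28, adjusted p = 0.00909) and 210984_x_at higher (0.24, adjusted p = 0.0150), and without control replicate 1, 211607_x_at was higher (0.22, adjusted p = 0.0288). The mean of all EGFR probe sets therefore hides the pattern: it gave -0.11 (adjusted p = 0.0914) for double against NFKB1 siRNA. IGF1R split in a similar way, with 225330_at higher by 0.22 (adjusted p = 0.0135) in double than in NFKB1 siRNA cells and 203627_at at -0.48 (adjusted p = 0.000991). The first of these was 0.03 (adjusted p = 0.709) after the shift to the same median and 0.14 (adjusted p = 0.0524) without NFKB1 siRNA replicate 3.

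**Figure D4:**
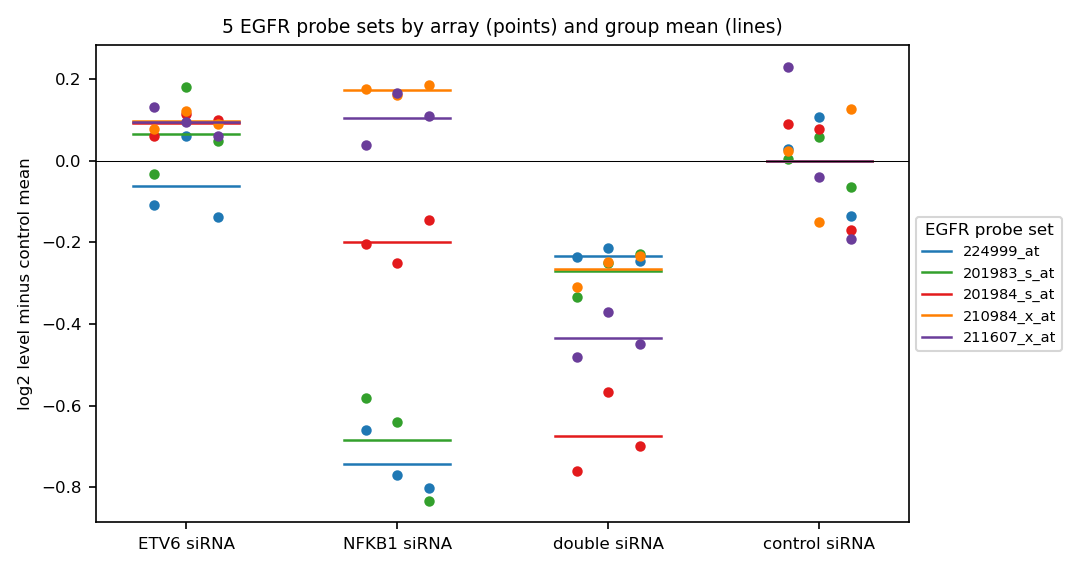
Log2 level of the 5 EGFR probe sets on each array minus the control siRNA mean of the same probe set (points), with group means (lines), for the 4 siRNA groups. With NFKB1 siRNA 224999_at and 201983_s_at lie near -0.74 and -0.68 and the others between -0.20 and 0.17, while with double siRNA all 5 lie below 0.

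The partner genes of the receptors were taken as 8 lists, with the brightest probe set of each gene. A gene counts as measured where the deposited values held a single-gene probe set for it. Of all 10346 genes, 2.59% were higher and 4.27% lower with ETV6 siRNA, 12.5% and 22% with NFKB1 siRNA, and 32.3% and 45.2% with double siRNA, and the list counts are read against these. The median change over all genes was 0.01, 0.01 and -0.11 in that order. After the shift to the same median, 42.9% of all probe sets were called with NFKB1 siRNA (4060 higher and 3363 lower). With double siRNA 78.7% were then called (5482 higher and 8143 lower). With 1 array left out, the share of all probe sets called was 2.54% to 7.56% with ETV6 siRNA and 26.5% to 40.3% with NFKB1 siRNA.

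Among the ligands, 6 of 11 EGF-family members were measured. TGFA, transforming growth factor alpha, was lower with ETV6 siRNA (-0.30, adjusted p = 0.0181), higher with NFKB1 siRNA (0.32, adjusted p = 0.00345) and higher with double siRNA (0.38, adjusted p = 0.000272). The call with ETV6 siRNA was lost without control replicate 2 or ETV6 siRNA replicate 1 or 2. Its second probe set was not called with ETV6 or double siRNA (-0.13 and -0.19). With double siRNA 3 of the 6 were higher and 1 lower: EGF (0.64) and BTC, betacellulin (0.90), rose with TGFA, while NRG2, a neuregulin, fell by 0.79. BTC in control siRNA cells (6.94) and NRG2 in double siRNA cells (7.04) lay below the 25th percentile of all probe sets (7.09). Of the ligands of the other receptors or their relatives 10 of 21 were measured. With double siRNA 4 were higher and 4 lower, led by PDGFD (8.58 in double against 7.07 in control siRNA cells, 1.51 ± 0.08 SE, limma adjusted p = 2.92e-06). PDGFD is a platelet-derived growth factor that binds mainly PDGFRB, which is not among the 7 receptors. PROS1, protein S, a ligand of AXL relatives, rose by 1.37 and FGF2 by 0.55, while GAS6, the ligand of AXL, fell by 0.57. With NFKB1 siRNA 1 of these ligands was higher and 3 lower: PDGFC (-0.69), FGF2 (-0.51) and PROS1 (-0.41) fell and the ephrin EFNA3 rose by 0.47, at levels of 6.71 in NFKB1 and 6.24 in control siRNA cells that lie below the 25th percentile of all probe sets (7.09). With ETV6 siRNA PDGFD alone was called (0.31, adjusted p = 0.0470), on 1 of its 2 probe sets, and leaving out any 1 of the 12 arrays left 0 of these ligands called.

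Of 48 other receptor tyrosine kinases 21 were measured. With double siRNA 4 were higher and 10 lower, with EPHA3, an ephrin receptor (1.54), and DDR2, a collagen receptor (1.38), among those that rose and EPHB3 (-0.86) and FGFR3 (-0.79) among those that fell. With NFKB1 siRNA 3 were higher and 7 lower. KDR, a receptor for vascular endothelial growth factor, fell by 0.89 to a low level (6.33 in NFKB1 against 7.21 in control siRNA cells). ROR1 fell by 1.34 at a low level (4.90 in NFKB1 against 6.23 in control siRNA cells), EPHB1 by 0.71 and RYK by 0.43. After the shift to the same median the NFKB1 siRNA counts were 4 and 4, and without NFKB1 siRNA replicate 1 they were 2 and 4. RYK and EPHB3 were the 2 lower with ETV6 siRNA, at -0.30 and -0.40. Of the other receptor tyrosine kinases 1 was called there without control replicate 2 or ETV6 siRNA replicate 1 or 2, and 0 without ETV6 siRNA replicate 3.

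Among adaptors and first effectors, 19 of 24 measured, 4 were lower and 0 higher with ETV6 siRNA, and these were YES1, a SRC-family kinase (-0.60), the adaptors GRB2 (-0.43) and GAB1 (-0.34) and the phosphatase PTPN11 (-0.34). The 2 other probe sets of PTPN11 and of GAB1 were not called, and 2 genes of the list were lower without control replicate 2 or without ETV6 siRNA replicate 1. With only the ETV6 and control arrays in the limma fit 0 of the 19 were called, and 5 had an unadjusted p under 0.05, 1 higher and 4 lower. With NFKB1 siRNA 1 was higher (GRB2, 0.21) and 3 lower, led by YES1 (-0.94) and PTPN11 (-0.91), with SOS2, an exchange factor for RAS, at -0.65. With double siRNA 5 were higher and 11 lower. YES1 rose by 0.73 in double siRNA cells, although it fell with each single siRNA, and its interaction was 2.27 (adjusted p = 2.64e-06). PTPN11 also fell with each single siRNA and rose by 0.34 with both, with an interaction of 1.59 (adjusted p = 4.53e-06). The adaptor NCK1 rose by 1.18, while SRC fell by 0.80 and NCK2 by 0.42.

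Downstream, 16 of 20 PI3K and AKT genes were measured. With NFKB1 siRNA 1 was higher and 5 lower. The PI3K regulatory subunits PIK3R1 (-0.96) and PIK3R3 (-0.59), the catalytic subunit PIK3CB (-0.43) and the AKT phosphatase PHLPP2 (-0.45) fell. These counts were 4 and 4 after the shift to the same median. With double siRNA 7 were higher and 8 lower, and 4 and 9 after the same shift. AKT1 (-0.84), AKT2 (-0.69) and TSC2, an inhibitor of mTOR signalling (-0.74), fell, and PIK3CB rose by 0.54. With ETV6 siRNA PIK3CD, a further catalytic subunit, was the 1 gene called (0.43, adjusted p = 0.00318), beside 2 higher and 1 lower without control replicate 1 and 1 and 1 without NFKB1 siRNA replicate 3.

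In the RAS and MAP kinase core 8 of 14 were measured, and with double siRNA 1 was higher and 6 lower, beside 32.3% and 45.2% of all genes. HRAS fell to 8.94 in double siRNA cells, against 9.63 in control siRNA cells (-0.70 ± 0.09 SE, limma adjusted p = 5.65e-05). The kinases MAP2K2 (-0.65), MAPK3 (-0.50) and RPS6KA1 (-0.80) fell as well. The list median was -0.56, beside -0.11 over all genes, and -0.67 after the shift to the same median. With ETV6 siRNA limma called 0 of the 8, of which 0 had an unadjusted p under 0.05, and with NFKB1 siRNA it called RPS6KA3 alone (-0.49, adjusted p = 0.000446), and 1 higher and 1 lower without control replicate 1.

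Of the negative regulators, 27 of 31 were measured, and 8 were lower and 1 higher with NFKB1 siRNA (7 lower after the shift to the same median). CD2AP, which links receptors to endocytosis, fell to 7.36 in NFKB1 siRNA cells, against 8.91 in control siRNA cells (-1.56 ± 0.17 SE, limma adjusted p = 0.000108). USP8 (-0.90), EPS15 (-0.54) and PTPN12 (-0.52) also fell, and they are a deubiquitinase, an endocytic adaptor and a tyrosine phosphatase. With double siRNA 9 were higher and 13 lower, with SOCS5 (1.24), a suppressor of cytokine and EGFR signalling, and the phosphatase PTPRB rising, and STUB1 (-0.53), a ubiquitin ligase, and HGS (-0.73), an endosomal sorting protein, falling. GRB10, an adaptor that binds IGF1R, was the 1 called with ETV6 siRNA (0.22, adjusted p = 0.0471). The count of negative regulators was 0 without control replicate 1, any 1 of the ETV6 or double siRNA arrays, or NFKB1 siRNA replicate 1 or 2, and 2 without control replicate 3 (2 higher) or NFKB1 siRNA replicate 3 (1 higher and 1 lower).

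Of sheddases and coreceptors, which cut receptors and ligands from the cell or help them bind, 18 of 20 were measured. ADAM10 fell with ETV6 siRNA (-0.64, adjusted p = 0.0165) and with NFKB1 siRNA (-1.18, adjusted p = 9.62e-05), and ADAM17, the other main sheddase of EGFR ligands, fell with NFKB1 siRNA (-0.78). With double siRNA ADAM10 rose by 0.46 (adjusted p = 0.00727), on all 3 of its probe sets, and its interaction was 2.28 (adjusted p = 6.04e-06). With ETV6 siRNA 4 were higher and 1 lower, the 4 being the coreceptor NRP1 (0.38), IGFBP5 (0.46), which binds insulin-like growth factors, the glypican GPC4 (0.28) and 1 further gene. Second probe sets of NRP1, GPC4 and ADAM10 were not called there, and the 4 higher became 2 without any 1 of the ETV6 or double siRNA arrays, while the 1 lower became 0 without ETV6 siRNA replicate 1 or 3. With NFKB1 siRNA 2 were higher, IGFBP3 (0.58) among them, and 6 lower, NRP1 (-0.51, on 1 of its 2 probe sets) among them, which became 5 and 3 after the shift to the same median and 1 and 4 without NFKB1 siRNA replicate 1. With double siRNA 6 were higher and 9 lower: SDC1, a syndecan, fell by 0.91, CD82 by 0.84 and IGFBP6 by 0.56, and NRP1 rose by 0.45 on 1 probe set and was at -0.12 and called lower on the other.

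**Figure D5:**
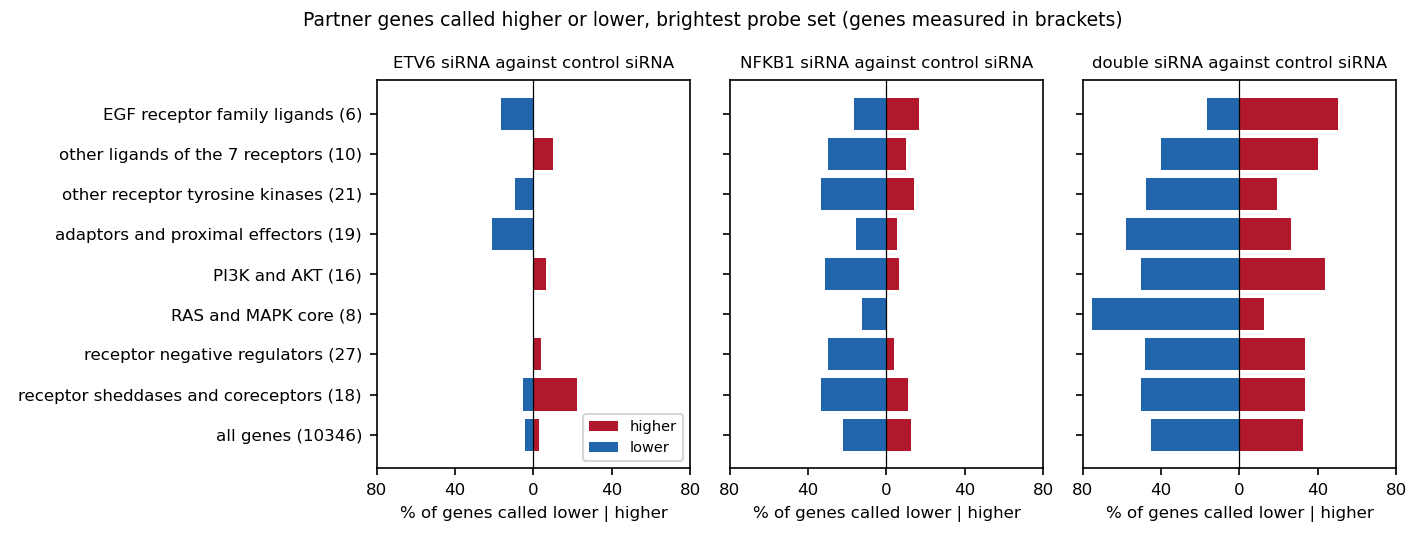
Percent of the measured genes of each list called lower (left bars) or higher (right bars) in each siRNA group against control siRNA, with all 10346 genes in the bottom row. With double siRNA 6 of 8 RAS and MAP kinase core genes are lower.

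The genes whose 12-array profile was nearest to a receptor were named by the smallest root mean square difference of centred log2 levels. For MET they were DDX21 (0.07), GNG12 (0.09) and KIF11 (0.10). DDX21, an RNA helicase, changed by -0.65 with ETV6 siRNA, -1.12 with NFKB1 siRNA and 0.34 with double siRNA. These values lie near those of MET because DDX21 was picked for its nearness over the same arrays. The median difference from MET over all genes was 0.64. For PDGFRA they were RAI14 (0.10), KCTD12 (0.12) and ZNF281 (0.13), and RAI14 changed by 0.37, -1.01 and 1.01 in the same order. For EGFR they were ASAP1, ADAM12 and DAB2 (0.06 to 0.07), for AXL KCNS3, NF2 and SLC6A6 (0.05 to 0.06), and for FGFR1 PEF1, ARFGAP2 and MARCHF9 (0.06). For IGF1R they were TMEM69, SLC25A13 and PHF21A (0.05 to 0.07), and for EPHA2 RILPL1, FBLIM1 and MYC (0.05 to 0.08). MYC, a transcription factor, changed by 0.30, -0.21 and -0.71.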

How the data were processed

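RNA of U251 cells was measured on 12 Affymetrix arrays, 3 for each of 4 siRNA groups read from the sample titles. The authors deposited log2 levels for each probe set. Their steps for background, summarization and normalization, and any genome build, are not given in the sources used here. All 12 value columns belonged to a labelled sample. Of the 19520 deposited probe sets, the platform table named 1 gene for 17313, several for 857 and none for 1293, and 57 controls were set aside. These 17313 entered 1 model without a filter (lmFit and eBayes of limma 3.58.1, R 4.3.3, 1 mean per group, 8 residual and 3.03 prior degrees of freedom). Tests were two-sided, and each of 7 comparisons had its p-values adjusted (Benjamini-Hochberg) over every probe set. With 3 arrays a side an exact permutation p cannot fall below 0.1, so that test was not used. The number of arrays limits the precision. Sequences came from the RefSeq promoter table of GRCh38.p14.

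The receptors, gene lists and tests were chosen with earlier results of these data known. Named were every receptor probe set, up to 4 members of each list with the smallest adjusted p in each comparison with control siRNA, and the 3 genes nearest to each receptor in profile. Lists used the probe set of a gene with the highest mean. Alternatives were a shift to the same median, quantile normalization, a filter at the 25th percentile, the brightest or the mean probe set of a gene, array weights, a trended and robust eBayes, only the groups compared, the replicate number as a block, and leaving out arrays. The model was tested on simulated data.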

Additional observations from a re-analysis of the deposited data

Results flagged for a closer look

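For 15 receptor probe sets the change with one siRNA differed with and without the other, by the limma interaction term (log2, adjusted over all probe sets; 83.3% of all probe sets had such a call). It was positive for MET 203510_at (2.08), PDGFRA 203131_at (1.38), EGFR 224999_at (0.57), EGFR 201983_s_at (0.35) and IGF1R 225330_at (0.24), where double siRNA cells stood above the sum of the single changes. It was negative for FGFR1 226705_at (-0.91), 211535_s_at (-0.80) and 207937_x_at (-0.50), for AXL 202685_s_at (-0.79) and 202686_s_at (-0.33), and for EPHA2 203499_at (-0.71). It was also negative for EGFR 211607_x_at (-0.63), 201984_s_at (-0.57) and 210984_x_at (-0.54) and for IGF1R 203627_at (-0.46). For MET 203510_at the value lay between 1.88 and 2.21 in the alternatives on that probe set. It was 0.82 for the mean of the 3 MET probe sets. ETV6 transcript stood higher in double than in ETV6 siRNA cells, so the interactions do not compare equal knock-down of ETV6.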

How the results depend on the processing

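Of the values recomputed for each receptor probe set under the alternatives, 2618 kept direction and side of the threshold, 79 lost their call and 77 gained one. Another 72 were uncalled in both fits and differed in sign, under several alternatives, arrays left out included. The 4 called values that changed sign did so when the probe sets of a gene were averaged: EGFR in double against NFKB1 siRNA (-0.11) and in the interaction (-0.16), and IGF1R in the same comparisons (-0.11 and -0.14). That average mixes probe sets that moved in opposite directions. For ETV6 siRNA against control, 2 receptor probe sets were called, 4 with array weights, 0 with only the groups compared, 1 with the replicate block and 1 to 2 with single arrays left out. Of the receptors on the brightest probe set 2 were called, 1 with averaged probe sets, 0 with only the groups compared, 1 with the replicate block and 1 to 2 with arrays left out. For ETV6 against NFKB1 siRNA 6 receptors were called, and 3 with averaged probe sets. The causes of the other changes were not tested.

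Over all probe sets, ETV6 siRNA gave 396 higher and 703 lower calls, 26 and 43 with only the groups compared and 1470 and 1510 with array weights. NFKB1 siRNA gave 1926 and 4109, and 727 and 2452 with only the groups compared. Same-numbered arrays of different groups deviated with correlations from -0.44 to 0.45. Arrays with different numbers were not set beside them, so whether the numbers pair the arrays was not settled. The replicate block gave 365 higher and 542 lower calls for ETV6 siRNA. Array weights were lowest for control siRNA replicate 3 (0.153). The interaction has no fit with only the groups compared, since it uses all 4.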
